A study of Rattus norvegicus with 71 samples.

Results

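The mitochondrial ribosomal protein genes are the rows of the count table whose symbol begins with Mrpl or Mrps followed by a digit, and 71 of the 17494 genes in the table met this rule, 43 of the large subunit (Mrpl) and 28 of the small subunit (Mrps). The libraries were made from the brains of 71 Sprague-Dawley rat offspring of 27 dams at postnatal day 2, in a model of maternal autoantibody-related (MAR) autism. All animals were wild type, and all dams, controls included, had received adjuvant. A coronal slice through the hippocampal formation was sampled together with neighbouring cortical and subcortical tissue, so each value is an average over many cell types.

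Saline controls were 24 animals of 7 dams that had received no antigen peptide. The 47 autoantibody-exposed animals came from dams given peptides of the antigens after which each autoantibody pattern is called: CRMP1+CRMP2 with 8 animals of 4 dams, LDHA/B+CRMP1+STIP1 with 25 of 9 dams, CRMP1+GDA with 6 of 3 dams and STIP1+NSE with 8 of 4 dams. Sample titles fall into 2 series, taken here as the 2 batches of the study's methods, since no label names a batch. The study also assigned litters to collection cohorts, which the labels used here do not give. Its text names first litters alone as the source of sequenced tissue. Its allocation table instead lists controls and LDHA/B+CRMP1+STIP1 animals under second litters and the other 3 patterns under first litters. The labels do not settle this. If the table holds, litter order and exposure cannot be told apart for those 3 patterns against controls. The MAR_C3 series held 43 animals, with 12 controls, 9 LDHA/B+CRMP1+STIP1 animals and all those of the other 3 patterns. The IgG, RNA and FcRn series comprised 12 controls and 16 animals exposed to LDHA/B+CRMP1+STIP1. Littermates share a dam and are not independent of each other, so p-values over animals take littermates as separate replicates.

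Mitochondria carry their own ribosome, which makes the small set of respiratory chain proteins that mitochondrial DNA encodes. Its rRNAs come from mitochondrial DNA, whereas all of its proteins are encoded in the nucleus, made in the cytosol and imported. The small subunit reads the messenger RNA and the large subunit forms the peptide bond. Loss of single mitochondrial ribosomal proteins in people impairs oxidative phosphorylation, with brain and heart often affected.

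Every library held between 24880182 and 36234952 counts, and the 71 genes together took 0.216% ± 0.0184 (SD, n = 71 animals) of them. All 71 genes were above 1 CPM (the count scaled to library size with TMM factors) in every library, and so all passed the filter on low counts in each comparison. Their exons were short, with a median of 996 bases against 2226 bases over all expressed genes. Mrpl11, which binds at the base of the stalk, had no row under that symbol and so was not analysed here. The same held for Mrpl9, Mrpl24, Mrpl28, Mrpl33, Mrpl39 and Mrps6, so sums over a subunit leave these genes out. 4 members share exon bases with a gene on the opposite strand, and whether reads were counted by strand is not given in the sources used here, so values of Mrpl13 (shared with Mtbp), Mrpl47 (Actl6a), Mrpl57 (Ska3) and Mrps7 (Gga3) may hold reads of the neighbour.

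Levels per length (RPKM, CPM divided by the exon length in kilobases) ran from 4.26 ± 0.573 for Mrpl40 to 65.0 ± 10.96 for Mrpl20 (SD, n = 71). The 3 highest large subunit genes were Mrpl20, Mrpl53 at 60.8 ± 6.53 RPKM and Mrpl17 at 57.0 ± 5.82 RPKM. The 3 lowest were Mrpl50 at 7.80 ± 1.09 RPKM, Mrpl47 at 7.19 ± 0.864 RPKM and Mrpl40. Mrpl53 and Mrpl17 differed from Mrpl20 by less than the SD of Mrpl20. Mrpl40 reached 5.63 RPKM in its highest animal and Mrpl47 was at 5.44 RPKM in its lowest, so that neighbours overlapped at this end as well. In the small subunit, Mrps18a at 58.8 ± 7.41 RPKM, Mrps25 at 51.1 ± 7.15 RPKM and Mrps34 at 49.3 ± 8.09 RPKM were highest. Mrps23 at 13.8 ± 2.42 RPKM, Mrps31 at 13.1 ± 1.39 RPKM and Mrps28 at 10.8 ± 1.94 RPKM were lowest.

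**Figure D1:**
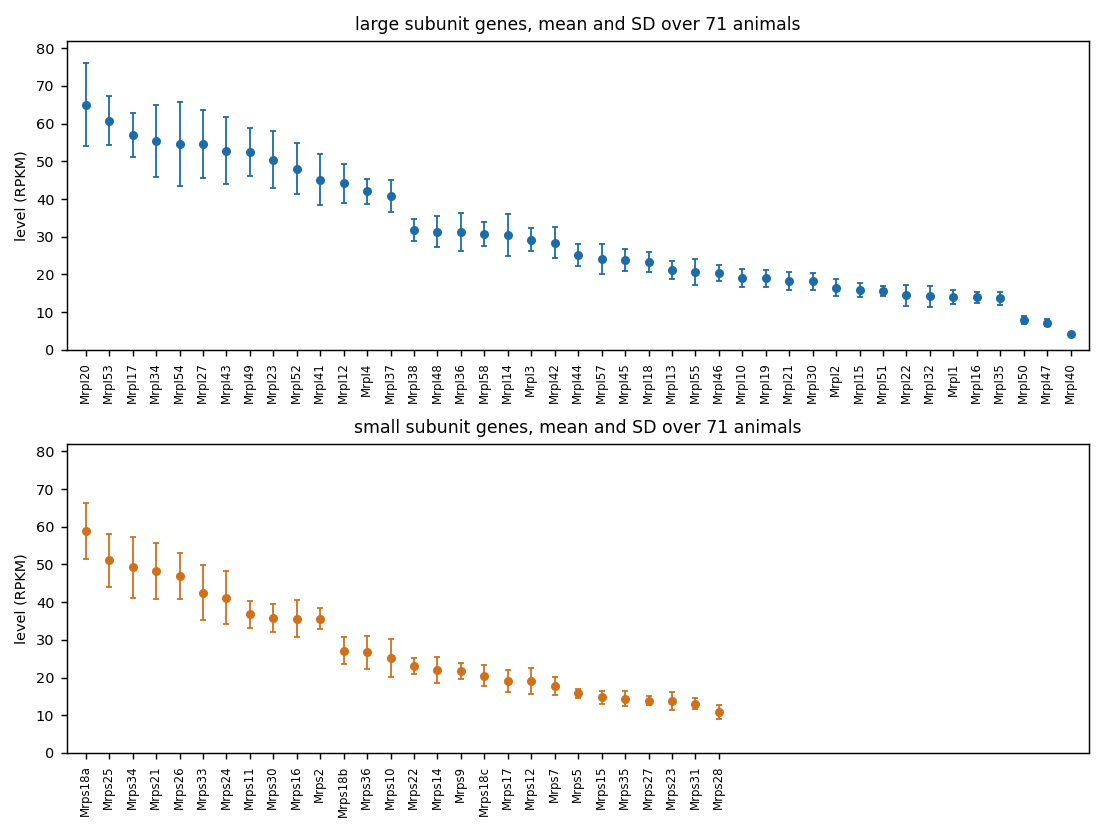
Level of each mitochondrial ribosomal protein gene (RPKM, linear axis), large subunit above and small subunit below, with points for the mean and bars for the SD over 71 animals. Large subunit genes spanned 4.26 to 65.0 RPKM and small subunit genes 10.8 to 58.8 RPKM, with close medians.

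The subunits had similar levels gene by gene. The median gene of the large subunit stood at 25.2 RPKM and that of the small subunit at 24.1 RPKM, with a 15.3-fold range among large and a 5.44-fold range among small subunit genes. Variation between animals was similar too, with a median coefficient of variation of 12.4% for large and 13.8% for small subunit genes. Summed over 43 large and 28 small subunit genes, the large subunit gave a median of 1.62 times the RPKM of the small subunit, from 1.51 to 1.74 over the 71 animals. This ratio of sums depends on the number of genes on each side. The symbols do not follow the structure in every case: Mrps18a and Mrps30 encode proteins that sit in the large subunit, and Mrps36 encodes a component of the alpha-ketoglutarate dehydrogenase complex. With Mrps18a and Mrps30 counted as large and Mrps36 left out, which makes 45 large and 25 small subunit genes, the ratio was 2.06. All other counts, rankings and medians by subunit follow the symbols, so Mrps18a, Mrps30 and Mrps36 are counted there as small.

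Levels of single genes are given by their role. Among genes of the stalk, which recruits translation factors, Mrpl12 was at 44.2 ± 5.17 RPKM and Mrpl10, the protein that anchors it, at 19.1 ± 2.37 RPKM. Mrpl4, homologous to bacterial L4 in the exit tunnel, was at 42.1 ± 3.31 RPKM, and Mrpl45, which ties the tunnel exit to the inner membrane, was at 23.8 ± 2.82 RPKM. Mrpl2 and Mrpl3, of the universally conserved core, were at 16.5 ± 2.21 and 29.2 ± 3.09 RPKM. Mrpl44, with a ribonuclease III-like fold, was at 25.2 ± 2.84 RPKM, and Mrpl58, a peptidyl-tRNA hydrolase built into the particle, at 30.8 ± 3.18 RPKM. In the small subunit, Mrps12 at the decoding centre was at 18.98 ± 3.44 RPKM and Mrps16 at 35.7 ± 4.97 RPKM. Mrps2, Mrps5 and Mrps7, which have bacterial homologues, were at 35.6 ± 2.81, 15.8 ± 1.14 and 17.9 ± 2.39 RPKM. Mrps22 and the pentatricopeptide repeat protein Mrps27, which have none, were at 23.05 ± 2.18 and 13.8 ± 1.20 RPKM. Mrps30 was at 35.8 ± 3.75 RPKM and Mrps36 at 26.7 ± 4.39 RPKM.

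The Mrps18 family has 3 paralogs that occupy different places in the ribosome: Mrps18a in the large subunit, Mrps18b and Mrps18c in the small subunit. Their levels were 58.8 ± 7.41, 27.1 ± 3.66 and 20.5 ± 2.79 RPKM, and the lowest Mrps18a value of any animal was 43.3 RPKM. The RefSeq promoter windows of the family and of Mrpl52 are shown because these genes were called in the comparisons given further on, and because the 3 paralogs hold different matches to motifs of factors known to drive nuclear genes of mitochondria. Each window runs from 150 bases before to 30 bases after the gene start on GRCr8, a build other than that of the counts, and capitals mark matches on either strand to GCGCATGCG (NRF1), CCGGAAG (ETS factors such as Gabpa) or AAGATGGC (YY1).
Mrps18a (chr9:22367351-22367530, minus strand): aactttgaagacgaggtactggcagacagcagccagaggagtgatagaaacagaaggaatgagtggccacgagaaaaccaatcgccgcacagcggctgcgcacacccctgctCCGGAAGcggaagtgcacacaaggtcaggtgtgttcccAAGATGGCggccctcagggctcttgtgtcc
Mrps18b (chr20:2842856-2843035, plus strand): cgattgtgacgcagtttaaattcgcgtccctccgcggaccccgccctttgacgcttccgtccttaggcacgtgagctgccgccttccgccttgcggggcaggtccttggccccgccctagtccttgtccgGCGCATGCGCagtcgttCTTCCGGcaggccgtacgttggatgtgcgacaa
Mrps18c (chr14:9122877-9123056, minus strand): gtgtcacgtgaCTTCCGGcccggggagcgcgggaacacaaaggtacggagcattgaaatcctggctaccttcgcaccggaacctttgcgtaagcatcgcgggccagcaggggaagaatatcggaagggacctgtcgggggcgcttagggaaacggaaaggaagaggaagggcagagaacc
Mrpl52 (chr15:31852786-31852965, plus strand): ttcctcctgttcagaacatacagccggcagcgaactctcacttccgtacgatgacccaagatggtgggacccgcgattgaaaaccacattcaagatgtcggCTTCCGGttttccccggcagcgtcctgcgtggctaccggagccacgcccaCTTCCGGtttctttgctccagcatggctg

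The Mrps18a window holds an ETS and a YY1 match, Mrps18c an ETS match alone, and Mrps18b overlapping NRF1 matches and an ETS match. A YY1 match of Mrps18b lies past the printed window, inside the full window of 250 bases before to 50 bases after the start. Of the 71 members, 56 had a promoter entry. Over these full windows, ETS matches were in 20 of the 56 members (35.7%) and in 16.6% of the 10037 tested genes with an entry, YY1 matches in 14 (25.0%) and 5.19%, and NRF1 matches in 5 (8.93%) and 3.05%. Matches of each kind occurred in both subunits: ETS in 12 of 35 large and 8 of 21 small, YY1 in 8 and 6, and NRF1 in 4 and 1. These are matches of letters and do not show binding.

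The members varied together between animals. After removal of the mean of each group and title series, the median Pearson r between pairs of members was 0.42 over 71 animals, and -0.0032 between pairs of all expressed genes. It was 0.44 within the large subunit, 0.39 within the small subunit and 0.41 between the subunits, so a gene was about as close to members of the other subunit as to its own. The median r was 0.52 with 73 cytosolic ribosomal protein genes and 0.54 with 36 genes of complex I subunits. These pairs share libraries, depth and short exons, and the values are descriptions. Members with the highest mean r to the others were Mrpl12 at 0.55, Mrpl14 at 0.54 and Mrpl23 at 0.54. The lowest were Mrps31 at -0.12, Mrpl51 at 0.05 and Mrpl47 at 0.06.

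A mean over the 71 genes for each animal, on the log2(CPM + 0.5) scale relative to each gene's own mean, ran from -0.26 to 0.30 with an SD of 0.12. The same mean over large subunit genes alone and over small subunit genes alone had r = 0.94 and rho = 0.94 across 71 animals, and r = 0.93 without the 2 animals farthest from the median. The large minus the small mean spanned only -0.08 to 0.10 (SD 0.04). The ratio of summed RPKM was 1.60 ± 0.0562 (SD, n = 28) in the IgG, RNA and FcRn series and 1.66 ± 0.0432 (n = 43) in the MAR_C3 series, with overlapping ranges.

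Library composition by gene length moved with these means. For each library a length slope was taken over the 12406 expressed genes that are no member, as the change in log2 CPM per doubling of exon length. Its r with the member mean was -0.93 (rho = -0.93) over all 71 animals, -0.98 (rho = -0.97) within the IgG, RNA and FcRn series and -0.96 (rho = -0.94) within the MAR_C3 series. Without the 2 animals farthest from the median slope, r was -0.93, -0.97 and -0.96 in the same order. For large subunit genes alone r was -0.95 and for small subunit genes alone -0.88. Animals with more RNA from these genes were thus those whose libraries held more of short transcripts in general. The length slope entered the comparisons below only as a covariate, which at such r cannot separate its part from a change of the members.

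**Figure D2:**
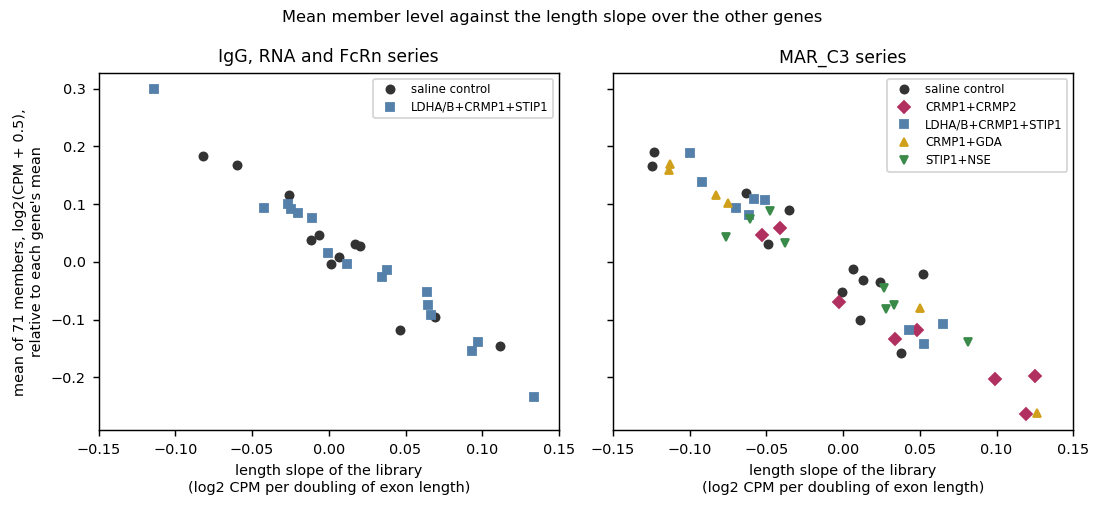
Mean level of the 71 genes in each animal (log2(CPM + 0.5) relative to each gene's mean) against the length slope of its library over the other genes, by title series and group. Points fall along a line in both series (r = -0.98 and -0.96), and 6 of the 8 CRMP1+CRMP2 animals lie below 0 on the vertical axis.

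In all 47 exposed animals against 24 controls, no member was called by edgeR (adjusted p under 0.1), and 0.0321% of all genes were called in this comparison. DESeq2 also called 0 members. At an unadjusted p under 0.05, 1 member was lower and 0 were higher, and 10.3% of all genes passed this threshold in either direction (4.19% lower). Mrps18c had the smallest p of the members, and its estimate was -0.09 on the log2 scale (SE 0.04, edgeR adjusted p = 0.47). The median log2 fold change was -0.03 over large and -0.03 over small subunit genes, and 0.003 over all genes tested.

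Against the 24 controls, 12 of the 71 genes were called lower in CRMP1+CRMP2 offspring and 0 higher. By symbol, 7 were of the large subunit (Mrpl4, Mrpl12, Mrpl15, Mrpl43, Mrpl52, Mrpl53 and Mrpl54) and 5 of the small subunit (Mrps15, Mrps18a, Mrps25, Mrps34 and Mrps35). All 8 exposed animals were of the MAR_C3 series, but only 12 of the controls were. This fit carried 1 surrogate variable and no term for series or sex. The exposed animals were 5 males and 3 females, and the controls 12 males and 12 females. A fit with title series and sex as covariates called Mrpl4, Mrpl15, Mrpl43, Mrpl52, Mrpl54, Mrps15, Mrps18a and Mrps34 lower. The share of all genes called in that fit is not given here. The fit with MAR_C3 controls alone and the fit on counts summed per dam called fewer members, as given below. The share of members that fell was 16.9%, against 6.56% of all genes tested, while 4.83% of all genes rose, and it was 16.3% in the large and 17.9% in the small subunit. The changes were small: the median log2 fold change was -0.12 in the large and -0.13 in the small subunit, and 0.01 over all genes tested. In all, 68 of 71 estimates lay below 0, as did 48.1% of the estimates of all genes. The share below 0 was 70.7% among genes up to 1000 bases that are no member. It was 97.3% among cytosolic ribosomal protein genes and 100% among complex I subunit genes. In bulk tissue, fewer cells that express a gene and less RNA per cell cannot be told apart.

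Mrps34, a small subunit protein whose loss in people destabilises that subunit and causes Leigh syndrome, had the most negative estimate. In CRMP1+CRMP2 animals it was at 35.5 and 39.5 CPM in the litter of dam 9_1, at 36.1 and 28.6 CPM in that of dam 9_6, at 34.9 and 32.6 CPM in that of dam 9_11 and at 39.6 and 39.2 CPM in that of dam 9_16. MAR_C3 controls ran from 35.2 to 62.3 CPM with a median of 44.4, and all 24 controls from 34.96 to 62.3 CPM. The CRMP1+CRMP2 animals lay at the low end of the control range and overlapped it. The log2 fold change was -0.36 (SE 0.08, edgeR adjusted p = 0.015).

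Mrpl43, a large subunit protein found only in mitochondrial ribosomes, had the smallest p of the 71 genes. Its levels in CRMP1+CRMP2 animals were 33.8 and 32.6 CPM for dam 9_1, 30.6 and 29.3 CPM for dam 9_6, 35.7 and 28.995 CPM for dam 9_11, and 35.2 and 37.7 CPM for dam 9_16. Controls ran from 32.4 to 46.0 CPM with a median of 39.3, so that the groups overlapped here too. The log2 fold change was -0.27 (SE 0.06, edgeR adjusted p = 0.013).

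Mrps18a, the family member of the large subunit, was at 42.5 and 45.3, 37.2 and 35.7, 41.1 and 43.3, and 43.01 and 47.2 CPM in the litters of dams 9_1, 9_6, 9_11 and 9_16. Controls ran from 40.4 to 59.9 CPM with a median of 49.7. Only the litter of dam 9_6 lay wholly below the controls. The log2 fold change was -0.24 (SE 0.06, edgeR adjusted p = 0.027). Its paralogs were not called, with log2 fold changes of -0.02 (SE 0.07) for Mrps18b and -0.13 (SE 0.08) for Mrps18c.

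Mrpl52 was at 38.5 and 39.0, 34.6 and 33.6, 41.1 and 49.2, and 42.9 and 39.7 CPM in the same order of dams. Controls ran from 40.98 to 63.7 CPM with a median of 46.7. The litters of dams 9_1 and 9_6 lay below every control. The log2 fold change was -0.28 (SE 0.08, edgeR adjusted p = 0.032). The rule for named genes gives the 8 members with the smallest p, and the other 4 were Mrps15 (log2 fold change -0.19), Mrpl4 (-0.15), Mrps25 (-0.25) and the stalk protein Mrpl12 (-0.16), with edgeR adjusted p from 0.047 to 0.074.

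Many members of known function were not called in CRMP1+CRMP2 animals. The log2 fold change was -0.08 (SE 0.06) for Mrpl10, -0.09 (SE 0.07) for Mrpl45, -0.11 (SE 0.07) for Mrpl44 and -0.13 (SE 0.06) for Mrpl58, with edgeR adjusted p from 0.17 to 0.41. It was -0.11 (SE 0.10) for Mrps12, -0.14 (SE 0.07) for Mrps16 and -0.11 (SE 0.05) for Mrps27. Mrps2 and Mrps5 had estimates of -0.003 (SE 0.05) and -0.02 (SE 0.05), and Mrps31, the least like the other members between animals, had 0.06 (SE 0.08).

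**Figure D3:**
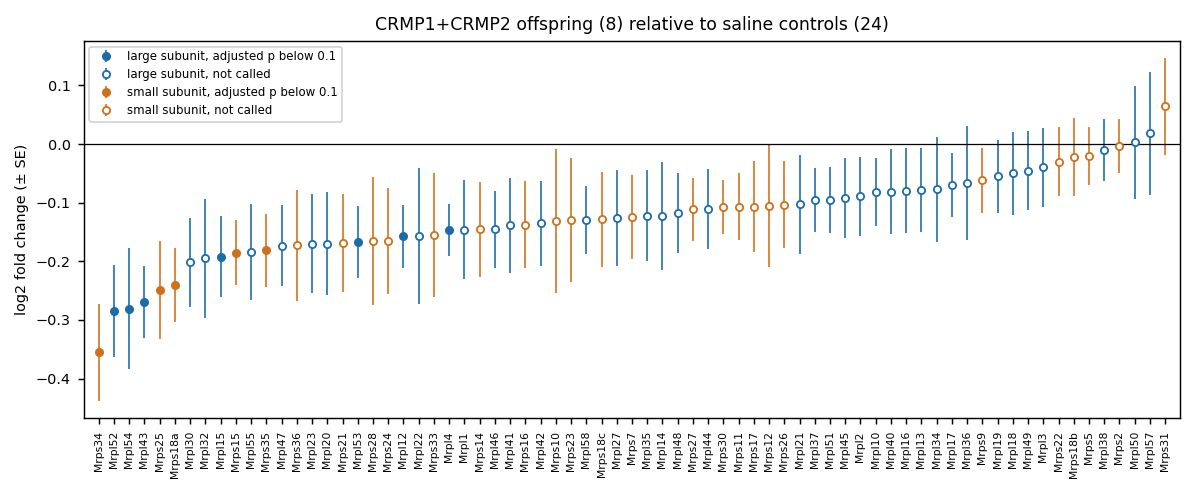
Log2 fold change of each of the 71 genes in 8 CRMP1+CRMP2 animals relative to 24 saline controls, with bars for the SE, coloured by subunit and filled where the edgeR adjusted p was below 0.1. The 12 filled points all lie below 0 and include both subunits, and 68 of the 71 points lie below 0.

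The call depended on the litter. The mean over the 71 genes was -0.10, -0.23 and -0.16 in the litters of dams 9_1, 9_6 and 9_11, and 0.05 in that of dam 9_16, on the log2 scale. Litters of MAR_C3 controls ran from -0.07 to 0.18. With dam 9_6 left out 0 members were called lower (0.0869% of all genes in that fit), with dam 9_11 left out 4 (5.63% of members, 3.52% of all genes), with dam 9_1 left out 9 (12.7% and 6.06%) and with dam 9_16 left out 32 (45.1% and 12.0%). Leaving out control dam 9_5, 9_15 or IgG2 gave 6 each (8.45% of members), with 4.44%, 4.55% and 3.66% of all genes. With counts summed per dam and with the dam as a random effect, 0 of the 71 genes were called, while 70 and 68 estimates lay below 0. The shares of all genes called and of all estimates below 0 in these fits are not given here. These counts are therefore not read as a result about the members. Against MAR_C3 controls alone, Mrpl43 and Mrps34 were among the called genes, and the share of all genes called in that fit is not given here either. A fit over all 43 MAR_C3 animals called 1 member lower (0.361% of all genes). With runs of 5 consecutive dam numbers added to it as a block, 56 members (78.9%) and 18.9% of all genes were called lower. Where a run held litters of both groups, CRMP1+CRMP2 minus control was -0.28 (from dam number 1), -0.21 (from 6) and -0.26 (from 11) in the member mean. No label says that these runs were cohorts, the block was chosen after the litter values were seen, and the run that holds dam 9_16 has no control litter.

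Gene length, other gene families and other tissues moved with this comparison. Among genes that are no member, the median log2 fold change was -0.10 over exons up to 1000 bases (1117 genes, 11.9% called lower), -0.03 from 1000 to 2000 bases, 0.02 from 2000 to 4000 bases and 0.09 above 4000 bases (1.23% called lower). The length slope averaged 0.04 ± 0.07 (SD, n = 8) in CRMP1+CRMP2 animals and -0.02 ± 0.06 (n = 12) in MAR_C3 controls. With the length slope as a covariate, the median of the members was -0.02 and 3 were called, Mrpl43 (log2 fold change -0.23), Mrps18a (-0.13) and Mrps34 (-0.21). The slope and the member mean had r = -0.93 over all animals, so the covariate takes out most of the variation in that mean. A median near 0 in that fit therefore cannot separate a change of the members from one of the slope. The share of all genes called in that fit is not given here, so the 3 cannot be set against it. In the main comparison 17 of 73 cytosolic ribosomal protein genes and 15 of 36 complex I genes fell, with medians of -0.16 and -0.17.

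All 5 choroid plexus markers and all 4 pineal markers tested rose in CRMP1+CRMP2 animals against the 24 controls, with medians of 2.23 and 4.92 on the log2 scale. Pineal markers summed to 229.9 and 64.2 CPM in 1 animal each of dams 9_1 and 9_11, to between 2.72 and 6.54 CPM in the other 6, and to at most 6.20 CPM in controls. Without the libraries in which they exceed 20 CPM, which leaves those other 6 exposed animals, 5 members were called: Mrpl4, Mrpl43, Mrpl52, Mrps18a and Mrps34. The share of all genes called in that fit is not given here, so the 5 cannot be set against it. Choroid plexus markers summed to between 177 and 3263 CPM in CRMP1+CRMP2 animals and to between 125 and 2823 CPM in MAR_C3 controls, with means of 1187 ± 989 (SD, n = 8) and 900.4 ± 812 CPM (n = 12), and the mean in the other 12 controls was 22.4 ± 30.4 CPM. Of 5 neuron markers Stmn2 and Syt1 fell, and the summed level was 6246 ± 544 CPM (SD, n = 8) against 6705 ± 366 CPM (n = 12) in MAR_C3 controls. Of 5 markers each, the oligodendrocyte genes Sox10 and Olig1 and the astrocyte gene Aldoc fell, Hbb of red blood cells rose, and no marker of dividing progenitors, microglia or endothelium was called. Neurod6, Prox1 and Zbtb20 of the cortex and hippocampus and the 3 skeletal muscle markers tested were not called either. The part of these cell types in the result was not tested.

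Other genes of mitochondrial translation are read against the same 6.56% of all genes that fell and 4.83% that rose. Of 5 mitoribosome proteins with other symbols, Gadd45gip1 of the large subunit (log2 fold change -0.28, SE 0.07) and Chchd1 of the small subunit (-0.24, SE 0.09) fell. None of 14 translation factors was called. Of 25 assembly and rRNA modification genes, Ngrn (-0.18, SE 0.05) and Malsu1 (-0.24, SE 0.09) fell. Wars2, the mitochondrial tryptophanyl-tRNA synthetase, was the 1 of 15 synthetase genes that rose, by 0.25 (SE 0.07). Among 13 regulators, Gabpa, which binds the ETS motif, rose by 0.18 (SE 0.05), and no other was called.

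Against the other 3 patterns within the MAR_C3 series, CRMP1+CRMP2 animals had no called member by edgeR (0% of all genes were called), and DESeq2 called 3, Mrpl15, Mrpl52 and Mrps34. The share of all genes that DESeq2 called is not given here. At an unadjusted p under 0.05, 26 members were lower and 0 higher, and 9.2% of all genes were lower by this measure. The median log2 fold change was -0.14 in the large and -0.11 in the small subunit. Among genes up to 1000 bases that are no member it was -0.13. With dam 9_16 left out, edgeR called 22 of the 71 members lower, and 6.08% of all genes in that fit. With the runs of dam numbers as a block it called 33 (46.5%) and 10.9% of all genes.

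The other patterns gave no called member against the controls, by edgeR or by DESeq2. For LDHA/B+CRMP1+STIP1, 0.0157% of all genes were called, and at an unadjusted p under 0.05 Mrpl42 was higher (log2 fold change 0.12, SE 0.05) and Mrpl1 lower (-0.11, SE 0.05), with 7.17% of all genes past this threshold. For CRMP1+GDA, 0% of all genes were called and 0 members passed an unadjusted p under 0.05 (3.65% of all genes). For STIP1+NSE, 0.0474% of all genes were called and 1 member, Mrpl53, passed the unadjusted threshold (-0.15, SE 0.06), as did 3.19% of all genes. The medians over members were -0.002, 0.01 and -0.04 in the same order. The patterns share the 24 controls. In CRMP1+GDA the litter of dam 9_8 had a member mean of -0.17 against 0.14 and 0.13 in those of dams 9_3 and 9_18, and without dam 9_8 the median log2 fold change was 0.13 with 0 called members.

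**Figure D4:**
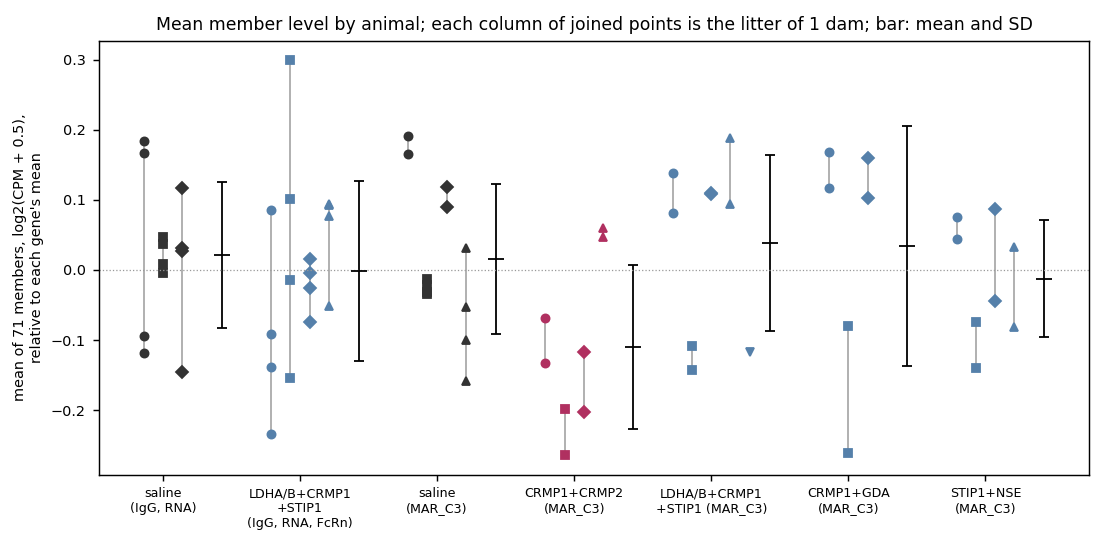
Mean level of the 71 genes in each animal (log2(CPM + 0.5) relative to each gene's mean), by group and title series, with littermates joined in 1 column per dam and bars for the mean and SD over animals. 3 of the 4 CRMP1+CRMP2 litters lie below 0 and the litter of dam 9_16 at 0.05, and every group overlaps the controls of its series.

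LDHA/B+CRMP1+STIP1 was the 1 pattern present in both series. In the IgG, RNA and FcRn series (16 against 12 controls) edgeR and DESeq2 called 0 members and edgeR 0.0167% of all genes, and an unadjusted p under 0.05 was reached by 2 members that were higher and 3 that were lower (5.4% of all genes). In the MAR_C3 series (9 against 12 controls) 0 members and 0% of all genes were called, and 1 member was higher at that threshold (4.78% of all genes passed it). The medians were -0.03 and 0.01. The interaction of exposure and series gave 0 called members, 0% of all genes and 1 member at an unadjusted p under 0.05 (2.89% of all genes), with a median difference of 0.04 (MAR_C3 minus the other series).

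Between female and male offspring, 0 members were called by either tool, and 0.0641% of all genes were called by edgeR. At an unadjusted p under 0.05, Mrps10 and Mrps18b were higher in females, by 0.15 (SE 0.06) and 0.09 (SE 0.04) on the log2 scale, with edgeR adjusted p = 0.99, and 4.69% of all genes passed this threshold. Mrps10 was at 13.5 ± 2.85 CPM in 36 females and 12.1 ± 1.92 CPM in 35 males.

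Controls of the 2 series differed in 22 of the 71 members. Of the 71 genes, 11 were higher and 11 lower in the 12 MAR_C3 controls than in the 12 controls of the IgG and RNA litters, against 21.4% and 20.2% of all genes tested, so the share of members called, 30.99%, was below the 41.6% of all genes. 7 large and 4 small subunit genes were higher, and 5 large and 6 small subunit genes were lower. The median was -0.001 over large and -0.02 over small subunit genes. Called genes of each subunit went in both directions.

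Among genes that were higher in MAR_C3 controls, Mrps14 was at 30.2 ± 3.44 CPM against 24.5 ± 3.33 CPM (SD, n = 12 each; log2 fold change 0.32, SE 0.08, edgeR adjusted p = 0.0025). The ranges overlapped, from 24.02 to 35.01 CPM and from 17.7 to 28.05 CPM. Mrpl20 was at 54.3 ± 6.30 against 45.0 ± 7.17 CPM, a log2 fold change of 0.28 (SE 0.08). Mrpl50 (0.29), Mrpl27 (0.22), Mrpl54 (0.23), Mrpl41 (0.18), Mrps24 (0.23) and Mrpl14 (0.22) followed by p. Of the genes that were lower, Mrpl32 was at 9.79 ± 1.73 CPM against 12.7 ± 1.85 CPM (log2 fold change -0.36, SE 0.09, edgeR adjusted p = 0.0043). Its protein is matured by the m-AAA protease before it joins the large subunit. Mrps17 was at 23.1 ± 3.00 against 28.2 ± 3.13 CPM (-0.28, SE 0.07). Mrps30 (-0.16), Mrps18b (-0.23), Mrpl37 (-0.14), Mrps2 (-0.12), Mrpl1 (-0.19) and Mrpl19 (-0.18) followed by p. With the dam as a random effect 4 members were called, Mrps14 and Mrpl20 higher and Mrpl32 and Mrps17 lower, and without dam RNA4 12 were called. The shares of all genes called in these fits are not given here, so these counts cannot be set against them.

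**Figure D5:**
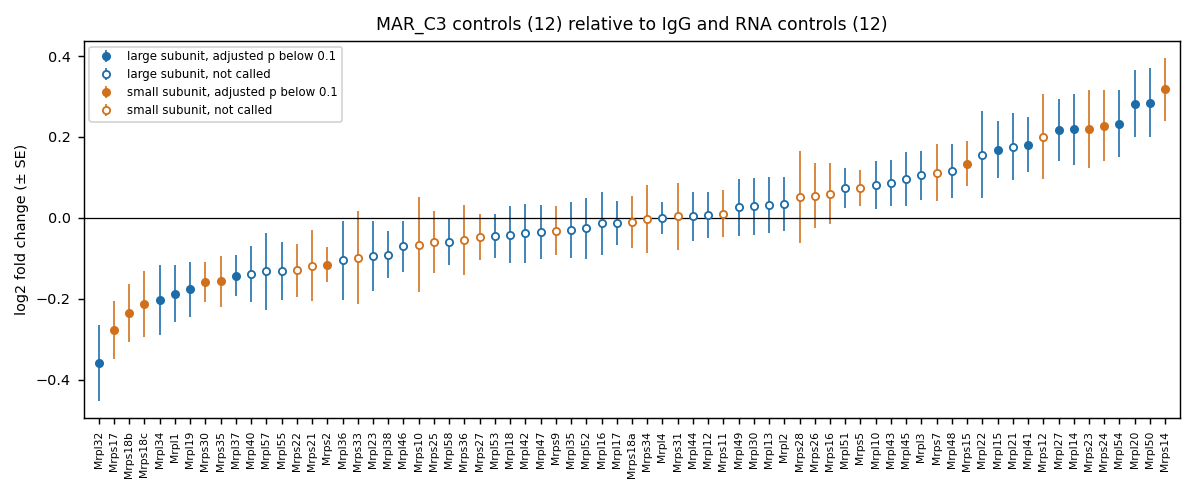
Log2 fold change of each of the 71 genes in 12 MAR_C3 controls relative to 12 controls of the IgG and RNA litters, with bars for the SE, coloured by subunit and filled where the edgeR adjusted p was below 0.1. Called genes of both subunits stand at both ends, 11 above and 11 below 0.

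The series also differed in tissue content. All 5 choroid plexus markers were higher in MAR_C3 controls (median log2 fold change 4.21), and their sum ran from 125 to 2823 CPM there and from 3.67 to 109.9 CPM in the other controls. Of the cortex and hippocampus markers, Prox1 was higher and Neurod6 and Zbtb20 were lower. Neuron markers were lower in 3 of 5 and those of dividing progenitors in 2 of 5 (Mki67 and Top2a). Of astrocyte markers 3 were higher and 1 lower, Cldn5 was higher and Flt1 lower of the endothelium, Hbb and Slc4a1 of red blood cells and Asmt of the pineal were higher, and no oligodendrocyte, microglia or skeletal muscle marker was called. The part of tissue content in the differences between series was not tested. Of the 14 translation factors, 1 was higher and 5 were lower, with Slirp, Guf1 and Lrpprc first by p among the lower ones. Of the 13 regulators, Tefm was higher and 5 were lower, among them Myc (-0.38, SE 0.07), Nrf1 (-0.24, SE 0.07) and Gabpa (-0.16, SE 0.05). Of 25 assembly genes 3 were higher and 3 lower, with Tfb1m lowest (-0.62, SE 0.08). Of the 5 mitoribosome proteins with other symbols Chchd1 (-0.27) and Gadd45gip1 (-0.17) were lower, and of 15 synthetase genes Tars2 and Fars2 were higher.

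Pooled over both series, littermates resembled each other in the member mean. The intraclass correlation of dam within group and series was 0.45 for the mean of the 71 genes and 0.55 for the length slope. It was not computed for each series. In the IgG, RNA and FcRn series, animals of litter FcRn4 ran from -0.15 to 0.30 and those of IgG1 from -0.12 to 0.18. Litter RNA1 was narrower, from -0.07 to 0.02. Means of the control litters in that series ran only from 0.0076 to 0.035. For single genes the median was 0.29 in the large and 0.25 in the small subunit, and 0.27 over all expressed genes.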

How the data were processed

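RNA from 71 animals was sequenced as poly-A libraries with paired ends. Per the labels and the study's methods, the authors aligned reads to rn7 with STAR 2.5.4b and counted them per gene with featureCounts. The deposited values are whole-number counts with no normalization, beside each gene's summed exon length in bases, which is the other deposited column used. Handling of reads with several matches is not given in the sources used here, so genes with close copies may gain or lose reads. Among counts of 1 to 9, 74.5% were even, and halving all counts was an alternative. Each library held 24880182 to 36234952 counts. 0 sample columns were left unused.

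Tests used edgeR 4.0.16 in R 4.3.3 (TMM, robust quasi-likelihood) over all genes past the filter, with Benjamini-Hochberg adjustment and a threshold of 0.1, and adjusted p-values come from it. A gene entered the general contrast when 8 or more samples reached 1 CPM, and a pattern's contrast when 2 or more exceeded 1 CPM. These fits carried 1 surrogate variable (sva 3.50.0). Contrasts within a series and between sexes used sex, and group or series, as covariates. Each list is described by counts and medians, beside those of all genes. Alternatives were DESeq2 1.42.0, DESeq2 size factors, upper-quartile scaling, no filter, title series and sex, MAR_C3 animals alone, counts summed per dam, the dam as a random effect (limma 3.58.1 voom), halved counts and each dam of a group left out. The length slope, the pineal libraries, the fits over all MAR_C3 animals with and without dam numbers in runs of 5, and the control dams and the CRMP1+CRMP2 dams in the comparison among patterns were added after seeing the data. The edgeR fits of the CRMP1+CRMP2, CRMP1+GDA and title series contrasts were tested on simulated counts. These had independent animals, no litter, series or length effect, and random values as the surrogate variable. They therefore do not test how the surrogate variable was estimated or how littermates affect the calls.

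The members, gene lists and tests were chosen with earlier results of these data known. Named members are a fixed panel by structural role, the 3 highest and 3 lowest per subunit, the 3 most and 3 least like the others, and at most 8 called members per direction with the smallest p. From other lists up to 3 called genes per direction are named. Members named at an unadjusted p under 0.05, the remaining called members, Mrps10, Nrf1 and Gabpa of the series contrast were named after their values were seen. RPKM is CPM per kilobase of exon length. Promoter windows come from RefSeq on GRCr8, matched by symbol. The result of 1 marker gene is not reported here.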

Additional observations from a re-analysis of the deposited data

Results flagged for a closer look

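In CRMP1+GDA animals, 1 animal stood apart from the other 5 by the gap to its nearest neighbour relative to the range (Dixon's test at the 95% level). Its ratio of large to small subunit RPKM was 1.59, and the nearest other animal was at 1.68. Mrps15, a small subunit protein, had a single low value of 30.5 CPM in the same group, and the nearest other animal was at 35.3 CPM. In all, 56 groups of values were examined in this way, and chance flags about 1 in 20.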

How the results depend on the processing

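The count of called members was within 1.5 times the reported one in every alternative for the general contrast, the 3 patterns other than CRMP1+CRMP2, the LDHA/B+CRMP1+STIP1 fits by series and their interaction, and the sex contrast, where it was 0. For CRMP1+CRMP2 against controls, 12 became 7 with upper-quartile scaling, 2 in MAR_C3 animals alone, 0 with counts summed per dam, 0 with the dam as a random effect, 3 with the length slope as a covariate and 5 without libraries with pineal RNA, and ran from 0 to 32 with a dam left out. It was 1 over all MAR_C3 animals and 56 with runs of 5 consecutive dam numbers added as a block, the highest of the 24 alternatives run, of which 11 were added after seeing the data. The block is an assumption about cohorts that the labels do not state, so neither count replaces the reported 12. Against the other patterns, 0 became 3 with DESeq2 and 33 with the same block, and ran from 0 to 22 with a dam left out. For the title series, 22 became 4 with the dam as a random effect, and ran from 12 to 22 with a dam left out. Where the text gives no share of all genes for an alternative, its count is not read as a result about the members. The ratio of large to small subunit RPKM became 2.06 with Mrps18a, Mrps30 and Mrps36 reassigned. Medians moved by more than the SD between controls in 2 of 110 alternatives. No called member changed sign in any alternative: single calls were kept in 167 and lost in 121 of those for CRMP1+CRMP2, and in 198 and 66 for the title series. No paired analysis was possible because the labels give no number that animals of different groups share: replicate numbers follow accession order, MAR_C3 titles are numbered through the series and other titles within a litter. Using all 71 members in place of those past the filter changes nothing, since all pass. The cause of these changes was not tested, beyond the smaller number of samples in fits that leave samples out or sum them. CRMP1+CRMP2 rests on 4 dams, and 3 patterns were present in 1 series only.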
